A study of Mus musculus with 12 samples.

Results

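Hearts of sham-operated mice given gastrodin were set against hearts of sham-operated mice given vehicle, with the 5 and 50 mg/kg/day groups averaged so that the question is what both doses share. The members are 6 of the 12 libraries of the series, 4 with gastrodin and 2 with vehicle, and they were chosen by their labels alone. All mice were wild-type C57BL/6 at postnatal day 45, and each sham group had the control operation without angiotensin II. The gastrodin groups are Sham 5 mg (libraries 9 and 10) and Sham 50 mg (libraries 11 and 12), and the comparison group is Sham 0 mg (libraries 7 and 8), which received the solvent alone. Dosing was by the gastric route for 7 days in each of them. The series also holds an angiotensin II (AngII) arm, a model of cardiac hypertrophy, with the same 3 doses (5 mg libraries 3 and 4, 50 mg libraries 5 and 6, vehicle libraries 1 and 2), which is used here for the spread between libraries and for 1 comparison at the end. The sources used here do not give the sex of the mice. Nothing in the labels says that the libraries of a group came from separate animals, so a p-value here measures only the spread between libraries, which may be technical.

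Gastrodin is a phenolic glucoside from the tuber of the orchid Gastrodia elata. It is used as a sedative and anticonvulsant drug and has been studied as an antioxidant and anti-inflammatory agent. The adult heart draws most of its energy from the oxidation of fatty acids in mitochondria, and its muscle cells share the tissue with fibroblasts, endothelial cells, pericytes and resident macrophages. Genes of these cells and pathways are therefore the lists described here, together with genes of the stress hormones that act on the glucocorticoid receptor. Errfi1 encodes MIG6, an inhibitor of the epidermal growth factor receptor family. Baiap2l1 encodes IRTKS, a protein that binds membranes and links them to actin.

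Errfi1 and Baiap2l1 are 2 of the genes called in the contrast, 1 in each direction, and the promoters that RefSeq lists for them on GRCm38.p6 are shown. Each window has 300 bases, from 250 before to 50 after the start, written 5′ to 3′ on the gene's strand, with motif matches on either strand in capitals. The Baiap2l1 window lies at chr5:144358063-144358362 on the minus strand, and the Errfi1 window, 1 of 2 listed for the gene, lies at chr4:150854820-150855119 on the plus strand.
Baiap2l1: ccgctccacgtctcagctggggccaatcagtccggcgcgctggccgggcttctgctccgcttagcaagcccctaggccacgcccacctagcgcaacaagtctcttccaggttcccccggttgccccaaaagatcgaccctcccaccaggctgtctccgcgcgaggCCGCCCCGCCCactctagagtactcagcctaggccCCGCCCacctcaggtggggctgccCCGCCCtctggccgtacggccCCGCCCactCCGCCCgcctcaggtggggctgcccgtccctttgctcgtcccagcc
Errfi1: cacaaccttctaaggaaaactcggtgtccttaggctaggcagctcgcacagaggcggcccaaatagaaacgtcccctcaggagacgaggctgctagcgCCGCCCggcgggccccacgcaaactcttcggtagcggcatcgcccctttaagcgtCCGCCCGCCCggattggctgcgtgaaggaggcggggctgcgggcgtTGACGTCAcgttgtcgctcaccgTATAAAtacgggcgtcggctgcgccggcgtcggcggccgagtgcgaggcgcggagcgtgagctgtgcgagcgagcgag
The capitals in Baiap2l1 are 6 matches of the GC box GGGCGG, 2 of which share a base. The capitals in Errfi1 are 3 GC boxes, 2 of which overlap, 1 cyclic AMP response element TGACGTCA and 1 TATA box TATAAA. A GC box was found in 35.66% of 32851 windows of the same length, a TATA box in 13.62% and the cyclic AMP element in 1.79%. The half-sites AGGTCA of nuclear receptors (16.26% of windows) and AGAACA of the glucocorticoid receptor (18.97%) had 0 matches in either window. These are matches of letters in a short window and say nothing of binding.

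The libraries of the comparison held 63.5 to 73.8 M counts with gastrodin, and 73.3 and 78.0 M with vehicle. Mitochondrial transcripts took 63.9 to 74.5% of the counts with gastrodin, and 74.0 and 71.7% with vehicle. Genes that are neither mitochondrial, mitochondrial-like, ribosomal RNA nor haemoglobin held 4.45, 5.17, 5.15 and 6.72 M counts in libraries 9 to 12, against 5.45 and 8.003 M in libraries 7 and 8. Libraries 10 and 12 stood apart in ribosomal RNA, which took 0.959% of the counts of library 10 (Wilson 95% interval 0.956 to 0.961%, counting error only) and 10.83% of those of library 12 (10.82 to 10.84%), against 0.127 and 0.0870% of libraries 9 and 11 and 0.183 and 0.0877% of the vehicle libraries. Haemoglobin transcripts took 0.0401 ± 0.0172% of the counts with gastrodin and 0.128 ± 0.00784% with vehicle (SD, n = 4 and 2; 2-sided exact permutation p = 0.0667, the smallest p that 15 splits allow). Heart muscle markers were present in every library, with a summed level of 4567 to 6967 CPM (counts per library size, scaled by TMM) with gastrodin, and 8606 and 6758 CPM with vehicle.

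Of 16723 genes tested, 6 changed with gastrodin averaged over both doses, at a Benjamini-Hochberg adjusted p under 0.05 in the quasi-likelihood test of edgeR. Errfi1, Cdo1, Rpl21 and the ribosomal pseudogene Rpsa-ps10 rose (4 genes, 0.0239% of those tested), and Baiap2l1 and the gene model Gm49394 fell (2 genes, 0.012%). Without an adjustment, 516 genes were higher (3.09%) and 619 lower (3.7%) at a p under 0.05. All 4 gastrodin libraries lay above both vehicle libraries in 6.32% of the genes tested and below both in 7.32%. Each of the 6 called genes had groups that did not overlap. The 2 genes also called at each dose on its own were Baiap2l1 and Gm49394. Gm49394 shares exon bases with Igf2 on the same strand. With the counts of both models added, the difference was 0.48 ± 0.34 on the log2 scale and was not called (adjusted p = 0.816, edgeR). By that criterion Baiap2l1 is thus the 1 gene whose change both doses share without this limit. The number of genes called was 1 without vehicle library 7, 10 without gastrodin library 11, and 12, 18 and 10 without the AngII libraries 3, 4 and 5, which enter through the shared spread. It was 7 without library 12, 9 without library 10, and 5 to 9 without any of the other libraries.

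Baiap2l1, the actin-linking membrane protein, fell at each dose (ENSMUSG00000038859; chr5:144264526-144358112, minus strand). Its level was 1.11 and 0.508 CPM at 5 mg and 1.25 and 1.23 CPM at 50 mg, against 27.8 and 14.1 CPM with vehicle. Every gastrodin library was thus near 1 CPM, and the vehicle libraries were both far above. The averages were 1.02 ± 0.349 CPM with gastrodin and 21.0 ± 9.72 CPM with vehicle (SD, n = 4 and 2). The difference was −4.39 ± 0.48 on the log2 scale (SE; adjusted p = 0.00422, edgeR). It was −4.71 ± 0.64 at 5 mg (adjusted p = 0.036) and −4.08 ± 0.62 at 50 mg (adjusted p = 0.0249). The difference between the doses was 0.63 ± 0.59 (adjusted p = 0.876), so no dependence on dose was detected. Without vehicle library 7, which had the highest level, the difference was −3.82 with an adjusted p of 0.0577. Exons of Baiap2l1 overlap Bri3 and Gm15708 on the opposite strand, and the sources used here do not say whether the counting used strand.

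Errfi1, the inhibitor of epidermal growth factor receptors, rose (ENSMUSG00000028967; chr4:150853919-150868892, plus strand). It had 4.92 and 5.50 CPM at 5 mg and 14.1 and 10.3 CPM at 50 mg, against 1.77 and 2.15 CPM with vehicle. The lowest gastrodin library stood above the highest vehicle library, and the 50 mg libraries were the highest. The averages were 8.70 ± 4.32 CPM with gastrodin and 1.96 ± 0.265 CPM with vehicle (SD, n = 4 and 2), a difference of 2.02 ± 0.30 on the log2 scale (adjusted p = 0.0369, edgeR). At 5 mg alone the difference was 1.41 ± 0.32 (adjusted p = 0.786), and at 50 mg it was 2.63 ± 0.33 (adjusted p = 0.00654). The difference between doses, 1.22, had an adjusted p of 0.296. The call was lost without vehicle library 7 (1.89, adjusted p = 0.595) or 8 (2.17, adjusted p = 0.171), and without library 9 (2.06, adjusted p = 0.0626), 10 (1.98, adjusted p = 0.0839) or 11 (1.90, adjusted p = 0.076).

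Cdo1, cysteine dioxygenase, which starts the breakdown of cysteine to taurine, had 0.709 and 1.16 CPM at 5 mg and 0.883 and 1.17 CPM at 50 mg, against 0 counts in both vehicle libraries. Set against a floor of 3 counts over the vehicle libraries together, its level was at least 44.3-fold higher with gastrodin (adjusted p = 0.0369, edgeR). The adjusted p was 0.0732 at 5 mg and 0.0223 at 50 mg. The gene is weakly expressed in these hearts, with 228 counts over the 4 gastrodin libraries. In AngII hearts Cdo1 had 0.766, 1.80, 1.32 and 0.898 CPM in gastrodin libraries 3 to 6, against 0.244 and 0.671 CPM with AngII vehicle. Its absence was thus limited to sham vehicle libraries 7 and 8. The call was lost without vehicle library 7 (adjusted p = 0.282) or 8 (adjusted p = 0.171) or gastrodin library 12 (adjusted p = 0.0514).

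**Figure D1:**
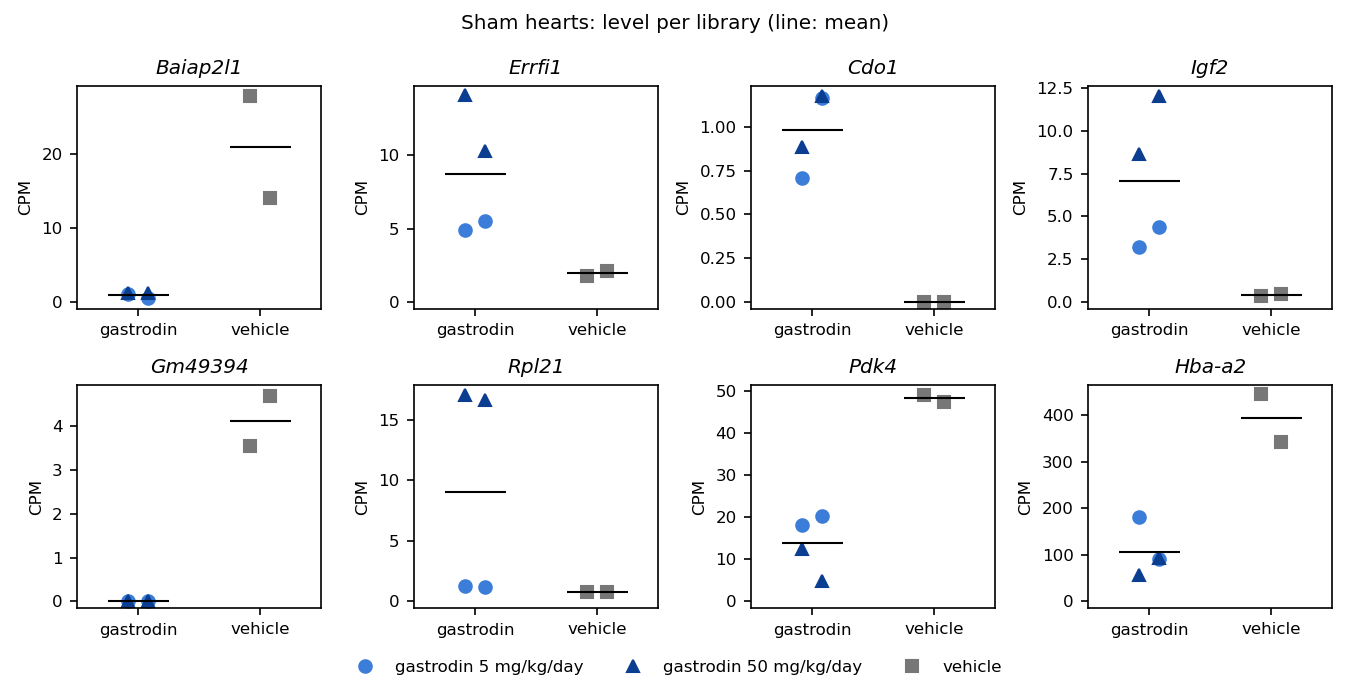
Levels of 8 genes in each sham library, in CPM on the vertical axes, with gastrodin on the left (circles 5 mg, triangles 50 mg) and vehicle on the right (squares); lines are group means. Baiap2l1 lies at 0.508 to 1.25 CPM with gastrodin, against 27.8 and 14.1 CPM with vehicle, and Errfi1 at 4.92 to 14.1 CPM with gastrodin, against 1.77 and 2.15 CPM with vehicle.

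Gm49394, the other gene called at each dose on its own, is a gene model (chr7:142650769-142669942, minus strand) that shares exon bases with Igf2 on the same strand. It had 0 counts in the 4 gastrodin libraries, against 3.53 and 4.69 CPM with vehicle. The adjusted p in edgeR was 0.00323 for both doses, 0.036 at 5 mg and 0.00654 at 50 mg. Counts assigned to this model were at least 319-fold lower with gastrodin, which gives no bound on RNA from the shared exons. Igf2, a fetal growth factor that gives the study its title, ran the other way, with 3.23 and 4.41 CPM at 5 mg and 8.66 and 12.03 CPM at 50 mg, against 0.347 and 0.462 CPM with vehicle. Its difference of 3.94 ± 0.75 on the log2 scale was not called (adjusted p = 0.169), while that at 50 mg alone was (4.66 ± 0.81, adjusted p = 0.0491). In the sham libraries where Gm49394 had counts, Igf2 was under 1 CPM, and this also held in the AngII 50 mg libraries, with 2.38 and 2.30 CPM of Gm49394 and 0.530 and 0.0318 CPM of Igf2. With the counts of both genes added, the level was 3.23, 4.41, 8.66 and 12.03 CPM in gastrodin libraries 9 to 12, against 3.88 and 5.15 CPM with vehicle. The groups of this sum overlapped, and its difference was 0.48 ± 0.34 (adjusted p = 0.816). For both models together no difference between gastrodin and vehicle passed the test.

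A like pair was found at Hsd3b7, an enzyme of bile acid synthesis. Hsd3b7 had 0.886 and 1.33 CPM at 5 mg and 2.30 and 2.30 CPM at 50 mg, against 0.251 and 0.09999 CPM with vehicle, a difference of 3.24 ± 0.57 on the log2 scale that was not called (adjusted p = 0.102), while that at 50 mg alone was (3.76 ± 0.61, adjusted p = 0.0291). Gm49388, a model that shares exon bases with it, had 0 counts in the gastrodin libraries and 1.35 and 1.06 CPM with vehicle. It also had 0 counts in every AngII library, AngII vehicle included, where Hsd3b7 had 2.57 to 6.39 CPM. Of the 12 libraries, only vehicle libraries 7 and 8 thus had counts of Gm49388, and they are the reference of each sham contrast. The sum of Hsd3b7 and Gm49388 in sham hearts was 0.886, 1.33, 2.30 and 2.30 CPM with gastrodin, against 1.60 and 1.16 CPM with vehicle. This sum differed by −0.01 ± 0.37 (adjusted p = 1.00).

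Rpl21, a protein of the large ribosomal subunit, rose mainly at the higher dose. It had 1.28 and 1.20 CPM at 5 mg and 17.0 and 16.6 CPM at 50 mg, against 0.810 and 0.762 CPM with vehicle (2.54 ± 0.30 on the log2 scale for both doses, adjusted p = 0.00589, edgeR). The test between doses passed, with 50 mg above 5 mg by 3.76 ± 0.33 (adjusted p = 0.000615). Rpsa-ps10, a processed pseudogene of the ribosomal protein gene Rpsa, had 4.87 and 13.6 CPM at 5 mg and 69.6 and 59.1 CPM at 50 mg, against 3.18 and 3.66 CPM with vehicle (2.83 ± 0.41, adjusted p = 0.0369), and 50 mg exceeded 5 mg by 2.80 ± 0.43 (adjusted p = 0.034). Their call for both doses together thus rests on 50 mg, and it was lost for Rpl21 without vehicle library 7 (adjusted p = 0.159) or 8 (0.12) and for Rpsa-ps10 without library 7 (0.497) or 8 (0.171). Both have near-identical copies elsewhere in the genome and Rpl21 overlaps Gm23202 and Gm25091, so their counts are uncertain. The list of 53 tested genes of the cytosolic ribosome does not hold Rpl21. Of these 53, 1 was higher and 0 were lower at an unadjusted p under 0.05, beside 3.09% and 3.7% of all genes tested. Their median difference was 0.02.

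Dose by dose, 3 genes passed at 5 mg (0 higher; 3 lower, 0.0179% of those tested) and 25 at 50 mg (14 higher, 0.0837%; 11 lower, 0.0658%). Both doses were set against the same vehicle libraries. The third gene at 5 mg, the pseudogene Gm2274, had 0 and 0 CPM at 5 mg and 0.460 and 0.908 CPM at 50 mg, against 0.733 and 0.887 CPM with vehicle, and differed between the doses (adjusted p = 0.034), so it is not shared. Between 50 and 5 mg, 12 genes differed (7 higher, 0.0419%; 5 lower, 0.0299%). Of the 6 genes called for both doses together, 2 were called at 5 mg and 6 at 50 mg, and 2 of them, Rpl21 and Rpsa-ps10, differed between doses. These counts lean on single libraries: at 5 mg 0 genes passed without library 7, 8 or 9, at 50 mg 1 passed without library 7, 9 without library 12, and 42, 39, 60 and 65 without AngII libraries 1 to 4, and between doses 1 passed without library 9, 3 without library 11 or 12, and 30 and 33 without AngII libraries 3 and 4.

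Genes of fatty acid uptake and oxidation were lower with gastrodin as a group of values, although none of them passed the adjusted test for both doses together, and 1 of them, Ucp3, passed at 50 mg. Of 41 tested members, 39 had a negative difference, beside 8442 of the 16723 genes tested. At an unadjusted p under 0.05, 17 were lower and 0 higher, beside 3.7% and 3.09% of all genes. In 21 of the 41 all gastrodin libraries lay below both vehicle libraries, against 7.32% of all genes tested. The median difference was −0.55 on the log2 scale for both doses, −0.34 at 5 mg and −0.77 at 50 mg, beside a median over all genes of −0.01. The doses share the vehicle libraries, so the 2 medians are not independent of each other.

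Pdk4, the kinase that turns off pyruvate dehydrogenase and so favours fat as fuel, had the smallest p of these genes. It had 18.3 and 20.3 CPM at 5 mg and 12.4 and 4.96 CPM at 50 mg, against 49.3 and 47.5 CPM with vehicle (−1.90 ± 0.36, adjusted p = 0.157, edgeR). Ucp3, a mitochondrial inner membrane carrier, had 2.41 and 4.90 CPM at 5 mg and 0.736 and 0.182 CPM at 50 mg, against 7.31 and 5.26 CPM with vehicle (−2.29 ± 0.45, adjusted p = 0.199), and passed at 50 mg alone (−3.80 ± 0.61, adjusted p = 0.0289). In neither gene did the groups overlap, and their lowest values were those of library 12.

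Mlycd, malonyl-CoA decarboxylase, which removes the inhibitor of fatty acid entry into mitochondria, had 10.3, 9.44, 6.47 and 5.98 CPM in gastrodin libraries 9 to 12, against 16.7 and 14.9 CPM with vehicle (−1.02 ± 0.21, adjusted p = 0.229). Hadh, a dehydrogenase of the beta-oxidation cycle, had 18.8, 17.4, 13.8 and 14.6 CPM with gastrodin, against 30.3 and 35.1 CPM with vehicle (−1.03 ± 0.23, adjusted p = 0.289). Vldlr, which is not on the list and was named by its p, is the receptor that takes up triglyceride-rich lipoproteins, and had 6.47, 8.26, 5.37 and 6.01 CPM with gastrodin, against 14.99 and 13.6 CPM with vehicle (−1.14 ± 0.24, adjusted p = 0.229). In each of the 3 genes both vehicle libraries stood above every gastrodin library.

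**Figure D2:**
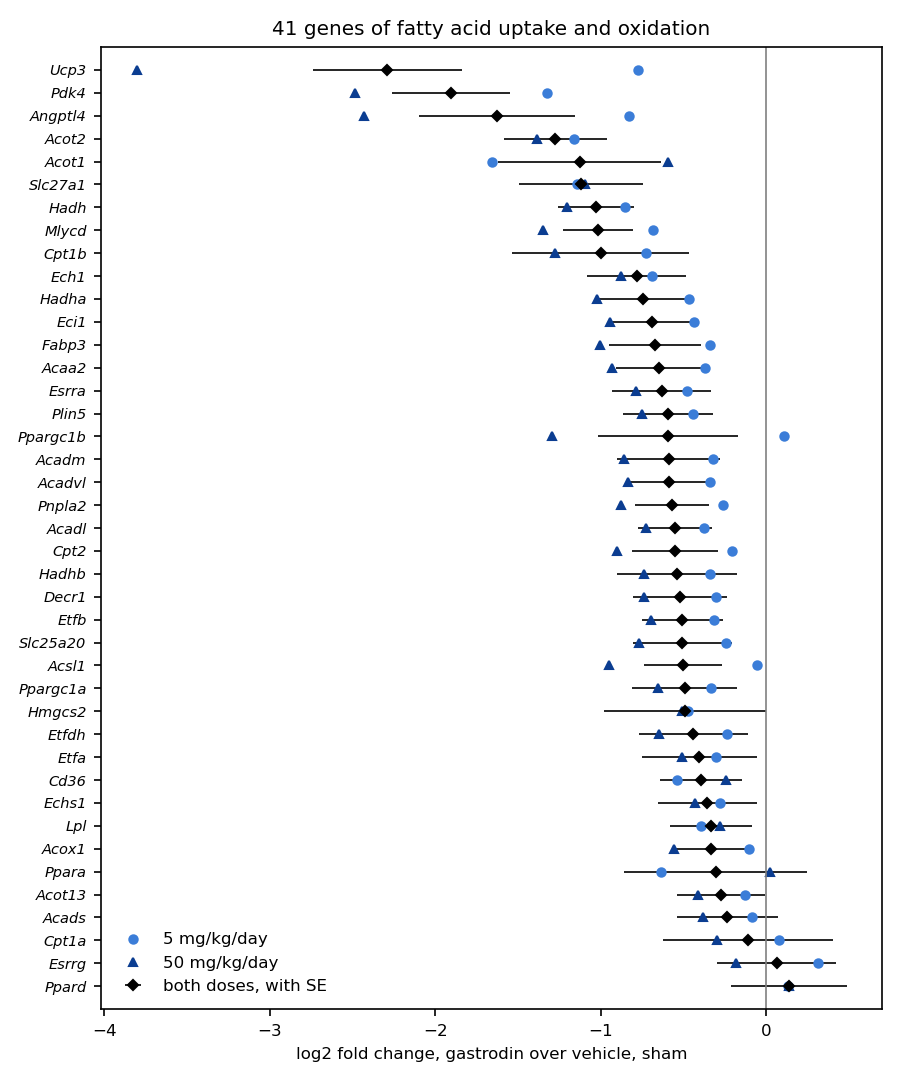
Log2 fold change of gastrodin over vehicle in sham hearts (horizontal axis) for 41 genes of fatty acid uptake and oxidation (vertical axis), for both doses with its SE (diamonds), 5 mg (circles) and 50 mg (triangles). The values of both doses lie below 0 in 39 of the 41 genes, with a median of −0.55.

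Nuclear genes of the respiratory chain and of the contractile apparatus also had negative medians. All 48 tested genes of oxidative phosphorylation had a negative difference, beside 8442 of the 16723 genes tested. Their median was −0.36 (−0.22 at 5 mg, −0.49 at 50 mg). Of the 48, 5 were lower at an unadjusted p under 0.05, beside 3.7% of all genes, and 0 passed the adjusted test. In 11 of the 48 all gastrodin libraries lay below both vehicle libraries, beside 7.32% of all genes. The summed level of gastrodin library 9 (4290 CPM) lay above that of vehicle library 8 (3983 CPM). Cox5a, a subunit of cytochrome c oxidase, had 52.8, 45.1, 37.2 and 35.4 CPM with gastrodin, against 73.3 and 53.7 CPM with vehicle (−0.59 ± 0.25, adjusted p = 0.697). Sdhb, the iron-sulphur subunit of complex II, had 84.4, 62.6, 62.8 and 53.1 CPM with gastrodin, against 118 and 83.8 CPM with vehicle, where library 9 lay above vehicle library 8 (−0.63 ± 0.27, adjusted p = 0.71).

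Among 25 genes of titin, the Z-disc and the thin filament, 23 had a negative difference, beside 8442 of the 16723 genes tested. Of the 25, 8 were lower at an unadjusted p under 0.05, beside 3.7% of all genes. In 8 all gastrodin libraries lay below both vehicle libraries, beside 7.32% of all genes. The summed level of gastrodin library 9 (8105 CPM) lay above that of vehicle library 8 (7908 CPM). The list's median was −0.51 (−0.21 at 5 mg, −0.81 at 50 mg). Myom2, an M-band protein, had 115, 102, 52.9 and 69.0 CPM with gastrodin, against 130 and 135 CPM with vehicle (−0.70 ± 0.23, adjusted p = 0.66). The 12 markers of heart muscle cells had a median of −0.48 (−0.17 at 5 mg, −0.70 at 50 mg), close to that of the muscle and fuel genes. In whole tissue, fewer cells of a type and less RNA per cell cannot be told apart, and the part of the muscle share in the fatty acid values was not tested.

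Of 22 genes known to respond to glucocorticoids, Errfi1 was the 1 that passed the test, and the list's median was 0.57 (0.16 at 5 mg, 0.96 at 50 mg). At an unadjusted p under 0.05, 5 were higher and 2 lower, beside 3.09% and 3.7% of all genes tested. Tsc22d3, which encodes the glucocorticoid-induced protein GILZ, had 18.98 and 18.97 CPM at 5 mg and 36.0 and 34.2 CPM at 50 mg, against 11.1 and 10.8 CPM with vehicle (1.24 ± 0.31, adjusted p = 0.386, edgeR). Ddit4, an inhibitor of the growth kinase mTORC1, had 7.88 and 8.79 CPM at 5 mg and 36.6 and 20.5 CPM at 50 mg, against 4.55 and 6.70 CPM with vehicle (1.45 ± 0.33, adjusted p = 0.307), and passed at 50 mg alone (2.34 ± 0.37, adjusted p = 0.0289). Both genes were above vehicle in every gastrodin library, with the 50 mg libraries the highest. Cdkn1a, the cell cycle inhibitor p21, had 3.30, 5.47, 12.4 and 14.6 CPM with gastrodin, against 3.34 and 3.40 CPM with vehicle, so that library 9 did not exceed vehicle (1.19 ± 0.28, adjusted p = 0.336), and passed at 50 mg alone (2.00 ± 0.32, adjusted p = 0.0289). The 2 lower members were Pdk4 and Angptl4, an inhibitor of lipoprotein lipase, both of which glucocorticoids are known to induce.

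None of the genes induced by interferon passed the test, and most had a positive difference. Of 24 tested, 20 had a positive difference, beside 8069 of the 16723 genes tested. An unadjusted p under 0.05 was reached by 6, all higher, beside 3.09% of all genes. In 11 of the 24 every gastrodin library lay above both vehicle libraries, against 6.32% of all genes. Their median was 0.61 for both doses, 0.53 at 5 mg and 0.71 at 50 mg, and that for both doses was 0.385 without library 10. Oas1a, a sensor of double-stranded RNA, had 2.37, 2.22, 1.91 and 2.93 CPM with gastrodin, against 0.829 and 0.437 CPM with vehicle (1.91 ± 0.47, adjusted p = 0.358, edgeR). Gbp2, a guanylate-binding protein, had 2.44, 1.74, 3.03 and 3.91 CPM with gastrodin, against 0.694 and 1.12 CPM with vehicle (1.56 ± 0.44, adjusted p = 0.517). Isg15, a ubiquitin-like protein, had 1.73, 2.38, 3.09 and 1.56 CPM with gastrodin, against 1.00 and 0.925 CPM with vehicle (1.18 ± 0.43, adjusted p = 0.67). The 3 genes did not overlap between groups, and all are at low levels.

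Cytokines, chemokines and NF-kappaB genes had a median of 0.49 over 31 tested members (0.18 at 5 mg, 0.95 at 50 mg). For both doses it was 0.768 without library 9 and 0.256 without library 10. Of the 31, 4 were higher and 0 lower at an unadjusted p under 0.05, beside 3.09% and 3.7% of all genes tested. Ccl9, a chemokine, had 2.39, 1.45, 3.37 and 2.05 CPM with gastrodin, against 0.231 and 0.750 CPM with vehicle (2.19 ± 0.80, adjusted p = 0.67). The 14 macrophage markers were positive in 14 of 14, beside 8069 of the 16723 genes tested. Of the 14, 2 were higher at an unadjusted p under 0.05, beside 3.09% of all genes. In 3 every gastrodin library lay above both vehicle libraries, beside 6.32% of all genes. The median was 0.89 (0.41 at 5 mg, 1.38 at 50 mg). For both doses the markers had a median of 0.573 without vehicle library 7 and 1.399 without vehicle library 8. Their summed level was 78.7, 92.7, 172 and 140 CPM with gastrodin, against 42.4 and 85.3 CPM with vehicle, so that library 9 lay within the vehicle range. C1qb, a chain of complement C1q, had 7.57, 7.66, 14.99 and 13.5 CPM with gastrodin, against 3.70 and 6.85 CPM with vehicle (0.98 ± 0.42, adjusted p = 0.702). The part of macrophage number in the cytokine values was not tested.

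No gene of the matrix or fibroblast lists passed the test, for both doses together or at either dose. The 38 matrix genes had a median of 0.59 for both doses (0.06 at 5 mg, 1.14 at 50 mg), which was 0.349 without vehicle library 7 and 0.978 without vehicle library 8. In 2 of the 38 every gastrodin library lay above both vehicle libraries, beside 6.32% of all genes, and 9 were higher at an unadjusted p under 0.05, beside 3.09% of all genes. Sparc, a matricellular protein that binds collagen, had 75.0 and 104 CPM at 5 mg and 161 and 166 CPM at 50 mg, against 71.6 and 77.2 CPM with vehicle (0.70 ± 0.26, adjusted p = 0.673). Loxl1, which cross-links elastin, had 7.26 and 5.70 CPM at 5 mg and 14.9 and 15.7 CPM at 50 mg, against 4.53 and 6.17 CPM with vehicle (0.89 ± 0.26, adjusted p = 0.538). In both genes a 5 mg library lay within the vehicle range, and the 50 mg libraries lay above it. The 12 fibroblast markers summed to 222, 332, 689 and 703 CPM with gastrodin, against 198 and 380 CPM with vehicle, with medians of −0.08 at 5 mg and 1.26 at 50 mg. Their median for both doses, 0.53, was 0.156 without vehicle library 7 and 1.04 without vehicle library 8. The part of fibroblast number in the matrix values was not tested.

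**Figure D3:**
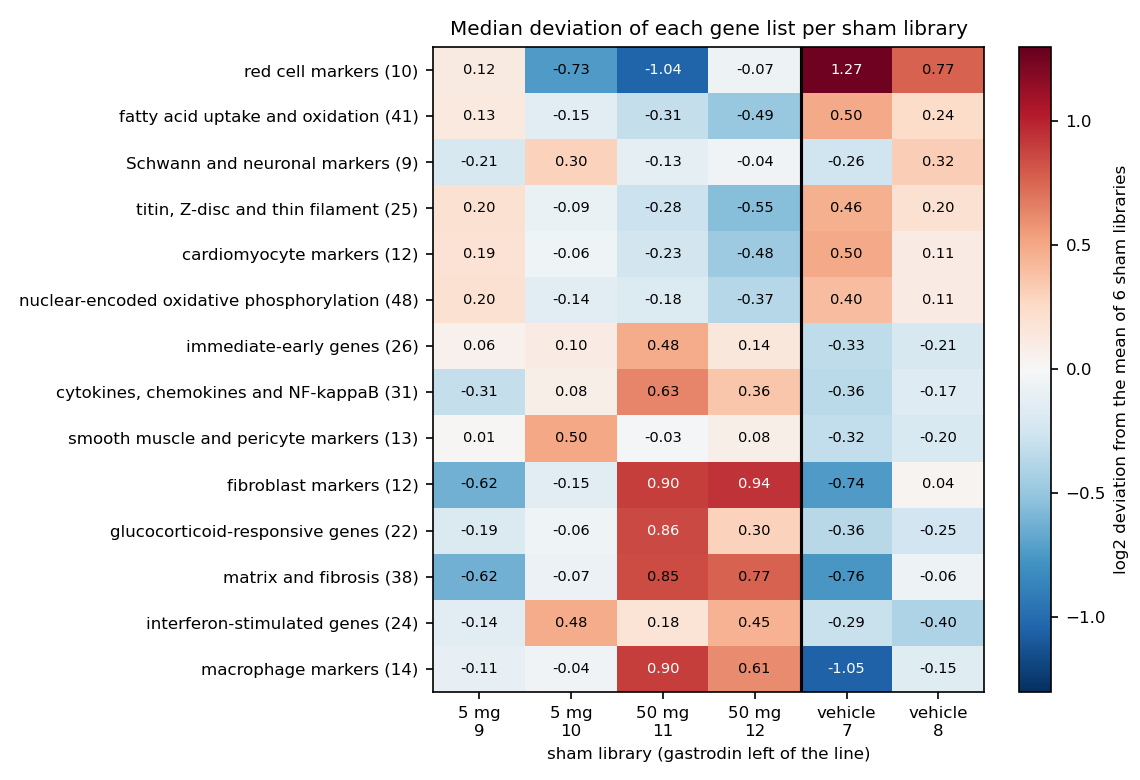
Median log2 deviation of gene lists from the mean of the 6 sham libraries (colour and printed value). Lists run down the page (number of tested genes in brackets) and libraries across, gastrodin left of the line and vehicle right of it. Only lists whose median differed from that of all genes by at least 0.3 log2 are drawn, without hepatocyte markers and the shortest lists. Fatty acid genes lie at 0.13, −0.15, −0.31 and −0.49 with gastrodin, against 0.50 and 0.24 with vehicle, and matrix genes are above the mean only in the 50 mg libraries 11 and 12.

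Red cell transcripts were lower in every gastrodin library. The 10 red cell markers summed to 768, 367, 294 and 615 CPM with gastrodin, against 1753 and 1318 CPM with vehicle. Their median difference was −1.50 (−1.42 at 5 mg, −1.61 at 50 mg). Of the 10, 6 were lower at an unadjusted p under 0.05, beside 3.7% of all genes tested. Hba-a2, an alpha globin, had 182, 91.2, 56.2 and 93.1 CPM with gastrodin, against 445 and 343 CPM with vehicle (−1.96 ± 0.35, adjusted p = 0.117, edgeR). Hba-a1 had 305, 154, 121 and 285 CPM with gastrodin, against 680 and 536 CPM with vehicle (−1.50 ± 0.40, adjusted p = 0.444). Hbb-bs, a beta globin, had 181, 78.7, 74.8 and 148 CPM with gastrodin, against 413 and 282 CPM with vehicle (−1.53 ± 0.46, adjusted p = 0.579). The globin genes are near-identical in pairs, so counts may be divided between them, while their sum does not depend on that division.

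Hepatocyte transcripts, which a heart should lack, appeared in 3 of the 4 gastrodin libraries at low levels. The 16 markers summed to 4.10, 72.3, 51.7 and 56.7 CPM in gastrodin libraries 9 to 12, against 3.45 and 4.61 CPM with vehicle. Of the 16, 15 were higher at an unadjusted p under 0.05, beside 3.09% of all genes tested, and 0 were called. In 2 every gastrodin library lay above both vehicle libraries, beside 6.32% of all genes. Ahsg, the liver-secreted glycoprotein fetuin-A, had 0, 3.21, 2.52 and 3.51 CPM with gastrodin, against 0 CPM in both vehicle libraries, and 10 of the 16 markers had no count with vehicle. Library 9 resembled the vehicle libraries in this respect, and in the AngII arm the sum ran from 4.06 to 95.2 CPM, with 4.06 and 47.8 CPM in its vehicle libraries. High sums thus occurred in vehicle as well as gastrodin libraries of that arm, and the part of these markers in the other differences was not tested.

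Immediate-early genes, transcribed within minutes of a stimulus, had a median of 0.40 over 26 tested members (0.39 at 5 mg, 0.57 at 50 mg). Of the 26, 3 were higher and 0 lower at an unadjusted p under 0.05, beside 3.09% and 3.7% of all genes tested. Egr2 had 1.24, 0.363, 1.18 and 0.838 CPM with gastrodin, against 0 counts with vehicle, and was at least 38.9-fold higher (adjusted p = 0.289, edgeR). Atf3, a stress-induced transcription factor, had 2.21, 2.61, 3.24 and 2.28 CPM with gastrodin, against 1.43 and 0.987 CPM with vehicle (1.10 ± 0.42, adjusted p = 0.681). Smooth muscle and pericyte markers had a median of 0.51 (0.42 at 5 mg, 0.44 at 50 mg) over 13 tested genes, 11 positive and 2 negative. Of these, 0 were higher and 1 lower at an unadjusted p under 0.05, beside 3.09% and 3.7% of all genes. Their summed level was 355, 351, 326 and 235 CPM with gastrodin, against 382 and 332 CPM with vehicle, so it was not higher. Among them Rgs5, a pericyte regulator of G-protein signalling, had 42.0, 34.7, 45.1 and 45.9 CPM with gastrodin, against 28.9 and 29.2 CPM with vehicle (0.52 ± 0.27, adjusted p = 0.745). Short marker lists of other tissues had medians of −0.59 (atrial muscle, 7 genes), −0.67 (skeletal muscle, 7), −0.53 (Schwann cells and neurons, 9), −0.52 (lung, 5), 0.86 (thymus, 3) and 0.34 (neutrophils, 4), with 0 called in each.

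Genes that mark hypertrophy did not pass in either direction. Nppa, atrial natriuretic peptide, had 436, 518, 617 and 315 CPM with gastrodin, against 324 and 699 CPM with vehicle (−0.12 ± 0.35, adjusted p = 1.00), and Nppb, the B-type peptide, had 62.5, 64.9, 88.8 and 80.8 CPM with gastrodin, against 52.6 and 102 CPM with vehicle (−0.07 ± 0.29, adjusted p = 1.00). The gastrodin values lay largely inside the range of the 2 vehicle libraries in both genes. The differences were −0.51 ± 0.35 for Myh7 and −0.71 ± 0.40 for Myh6, the slow and fast myosin heavy chains, and −1.10 ± 0.35 for the skeletal actin Acta1 (adjusted p = 0.813, 0.763 and 0.646). Acta1 had 853, 462, 167 and 289 CPM with gastrodin, against 923 and 741 CPM with vehicle. The collagens Col1a1 and Col3a1 differed by 0.50 ± 0.40 and 0.77 ± 0.36, and Postn, periostin, by 1.03 ± 0.43 (adjusted p = 0.861, 0.733 and 0.697).

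Named genes of store-operated calcium entry, the antioxidant response and the renin-angiotensin system were also without a call. Stim1, the calcium sensor of the endoplasmic reticulum, differed by 0.45 ± 0.49 and its channel Orai1 by 0.47 ± 0.42 (adjusted p = 0.932 and 0.881). Haem oxygenase Hmox1 differed by 0.61 ± 0.59 and the quinone reductase Nqo1, a target of NRF2, by −0.57 ± 0.33 (adjusted p = 0.912 and 0.776). The angiotensin receptor Agtr1a differed by −0.80 ± 0.41 (adjusted p = 0.746).

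The same contrast in the AngII arm asks whether gastrodin moved these genes there as well. In that arm 0 of 16723 genes passed in edgeR (0.712% were higher and 0.807% lower at an unadjusted p under 0.05, 254 genes in all; 10 passed by DESeq2's Wald test and 0 by limma-voom). The difference between the arms also passed for 0 genes (2.3% were higher and 2.18% lower in sham at an unadjusted p under 0.05, 748 genes in all; 28 passed by DESeq2 and 1 by limma-voom), with a smallest adjusted p of 0.106. Baiap2l1 had 7.08 and 10.5 CPM at 5 mg and 1.503 and 0.850 CPM at 50 mg in AngII hearts, against 0.976 and 3.47 CPM with AngII vehicle, a difference of 0.53 ± 0.49. Its sham effect lay below its AngII effect by 4.92 ± 0.72 (adjusted p = 0.106). The 2 sham vehicle libraries had the highest Baiap2l1 levels of the 12.

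Errfi1 had 7.36 and 8.57 CPM at 5 mg and 3.26 and 3.96 CPM at 50 mg in AngII hearts, against 10.9 and 7.25 CPM with AngII vehicle (−0.76 ± 0.26), and the arms differed by 2.78 ± 0.39 (adjusted p = 0.106). The 2 sham vehicle libraries had the lowest Errfi1 levels of the 12. Pdk4 had −1.52 ± 0.36 in AngII hearts, beside −1.90 ± 0.36 in sham hearts, and Ucp3 had −1.49 ± 0.44, beside −2.29 ± 0.45 in sham hearts, with differences between arms of −0.38 ± 0.53 and −0.80 ± 0.65 (adjusted p = 1.00 each). In AngII hearts Pdk4 was at 8.86, 12.5, 7.16 and 14.4 CPM in gastrodin libraries 3 to 6, against 24.8 and 36.8 CPM with AngII vehicle, so the groups did not overlap there either. Hba-a2 had 0.71 ± 0.38 in AngII hearts, beside −1.96 ± 0.35 in sham hearts (difference −2.67 ± 0.53, adjusted p = 0.399). The median over the fatty acid list was 0.08 in AngII hearts, beside −0.55 in sham hearts.

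**Figure D4:**
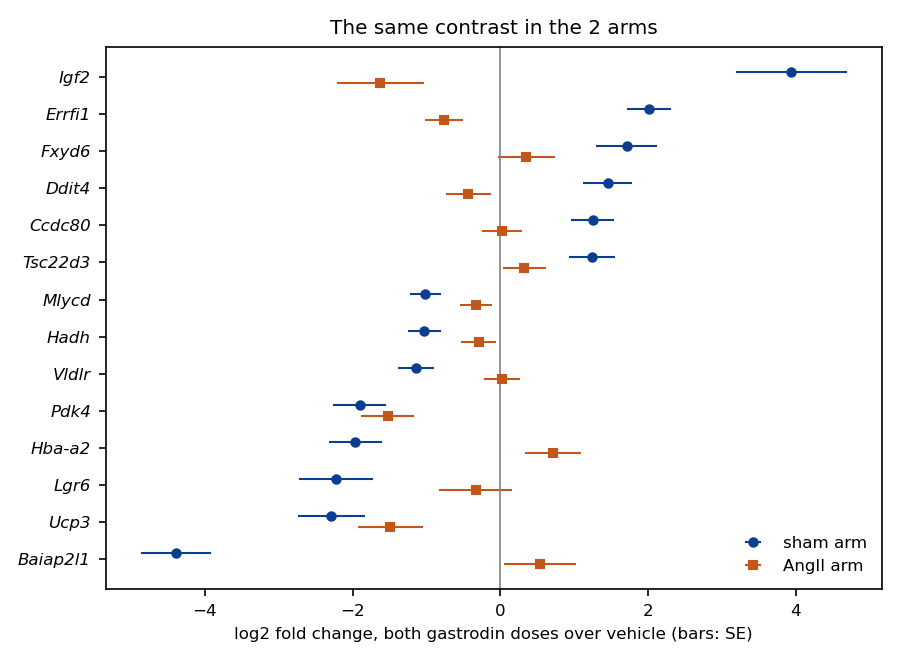
Log2 fold change of both gastrodin doses over vehicle (horizontal axis, bars are SE) for 14 genes (vertical axis) in sham hearts (circles) and AngII hearts (squares). Pdk4 and Ucp3 lie below 0 in both arms, and Baiap2l1 and Errfi1 depart from 0 in sham hearts by −4.39 and 2.02, beside 0.53 and −0.76 in AngII hearts.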

How the data were processed

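RNA from 12 mouse heart samples was prepared with RNeasy Plus Mini columns, and 1 ug of it made TruSeq RNA libraries read as 250-base pairs, per the labels' protocols. HISAT2 2.2.1, StringTie 2.1.3 and GRCm38.p6 are named in the submitters' processing notes. Which program counted reads, on which annotation, with what strand setting and with what rule for multiply mapped reads is not stated there. The authors deposited raw counts per gene for 27504 genes without normalisation, and TPM for 14271 genes, which are named TPM per the file headers.

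Counts were fitted in R 4.3.3 with edgeR 4.0.16, using filterByExpr (16723 genes kept), TMM scaling, 1 mean for each of 6 groups over all 12 libraries (6 residual degrees of freedom), the quasi-likelihood F-test, 2-sided, and Benjamini-Hochberg adjustment over all genes tested at 0.05. The contrast was the mean of both gastrodin groups minus vehicle in sham. SE was computed as |log2 fold change|/√F, and CPM is the count over the TMM-adjusted library size. Folds against groups with 0 counts set that group at a floor of 3 counts in total, which covers counting error only. Gene positions are from GENCODE M21 on GRCm38, and promoters from RefSeq. The pipeline was tested on simulated counts.

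The rule for named genes took called ones whose mean log2 CPM reached 1, with no overlap between groups and an official symbol, then genes of the smallest p up to 8 in each direction, 14 fixed genes, and up to 4 members of each list with the smallest p. Cdo1, Gm49394, Gm49388, Gm2274, Rpsa-ps10 and Angptl4 were named after their values were seen. For 2 genes taken by this rule, results are not reported here. Lists were described by counts and medians where the median differed from that of all genes by at least 0.3 log2. The lists of cytosolic ribosomal proteins and heat shock chaperones did not meet this rule and were described as well. The members and lists were chosen with earlier results of these data known. Alternatives were DESeq2 1.42.0, limma 3.58.1, other filters, other groupings, TPM on a log2 scale with pseudocounts of 1 and 0.1, and each library left out in turn.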

Additional observations from a re-analysis of the deposited data

Results flagged for a closer look

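The response of Rpl21 differed between the doses in edgeR's test of 50 against 5 mg in sham hearts, by 3.76 ± 0.33 on the log2 scale (adjusted p = 0.000615), with 17.0 and 16.6 CPM at 50 mg, against 1.28 and 1.20 CPM at 5 mg. Rpsa-ps10 differed in the same test by 2.80 ± 0.43 (adjusted p = 0.034), with 69.6 and 59.1 CPM at 50 mg, against 4.87 and 13.6 CPM at 5 mg. In AngII hearts Rpl21 was at 0.556 to 0.990 CPM and Rpsa-ps10 at 2.97 to 6.31 CPM in the 6 libraries of all doses. Gm2274, a pseudogene, had 0.460 and 0.908 CPM at 50 mg, against 0 counts in both 5 mg libraries, and also differed in that test (adjusted p = 0.034); its fitted difference of 8.75 depends on the prior count and gives no bound.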

How the results depend on the processing

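The 6 genes called for both doses became 101 with DESeq2's Wald test (60 higher, 41 lower), 247 with no filter on low counts (148 higher, 99 lower), 3 with the 4 gastrodin libraries as 1 group, and 1 to 18 with each library left out. At 5 mg the 3 genes became 32 (DESeq2), 152 (no filter), 1 (log2(TPM + 1), or libraries 4 and 12 left out together), 0 (limma-voom, or at least 1 CPM in 4 libraries), and 0 to 4 with each library left out. At 50 mg the 25 became 262 (DESeq2), 354 (no filter), 16 (at least 1 CPM in 4 libraries), and 1 to 65. Between doses the 12 became 146 (DESeq2), 236 (no filter), 4 (limma-voom), and 1 to 33. In AngII hearts the 0 became 10 (DESeq2), 52 (no filter), and 0 to 6. For the difference between arms the 0 became 28 (DESeq2), 138 (no filter), 1 (limma-voom, or log2(TPM + 1)), 3 (log2(TPM + 0.1)), and 0 to 4. The cause was not tested. Directions reversed for Gm49394 (0.48) and Hsd3b7 (−0.0100) with genes that share exon bases on the same strand summed, an alternative chosen after seeing the data, and for genes without a call: Nppa ran from −0.571 without vehicle library 7 to 0.543 without vehicle library 8, and was 0.0829 without library 12 and 0.0832 without libraries 4 and 12; Nppb was 0.0015 with limma-voom and ran from −0.474 to 0.485 without vehicle library 7 or 8; Col1a1 ran from −0.0946 to 1.53 without vehicle library 7 or 8; and Stim1 from −0.0145 to 0.740 without library 9 or 10. Baiap2l1 was called in 12 of 12 other settings and in 11 of 12 fits with a library left out, and Errfi1 in 7 and 7. Of the other settings, Cdo1 lost its call in 5 of 12 (limma-voom, sham libraries alone, both TPM fits, and libraries 4 and 12 left out), and Rpl21 and Rpsa-ps10 in 4 each (the gastrodin libraries as 1 group, both TPM fits, and limma-voom or sham libraries alone). Over the 24 alternatives the list medians kept their sign for fatty acid (−0.67 to −0.41), oxidative phosphorylation (−0.51 to −0.22), interferon (0.28 to 0.71), red cell (−1.86 to −0.97), macrophage (0.38 to 1.40), matrix (0.31 to 0.98) and fibroblast genes (0.16 to 1.04), and changed it in at least 1 for neutrophil, Schwann, lung and thymus markers. No paired analysis was possible because the groups share no replicate numbers. With 2 libraries per group, a library left out leaves a lone one that is assumed to vary like the others.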

Other observations

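Heat shock chaperones had a list median of 0.08 over 22 tested genes, yet 5 were higher and 1 lower at an unadjusted p under 0.05, beside 3.09% and 3.7% of all genes tested. Hspa1a, an inducible HSP70, had 1.53, 0.563, 3.03 and 5.56 CPM with gastrodin, against 0.501 and 0.462 CPM with vehicle (2.13 ± 0.54 on the log2 scale, adjusted p = 0.386, edgeR). Hspa1b, its neighbouring and near-identical copy, had 0.820, 0.890, 1.78 and 4.50 CPM with gastrodin, against 0.231 and 0.350 CPM with vehicle (2.48 ± 0.68, adjusted p = 0.491). In both genes every gastrodin library lay above vehicle, and library 12 was the highest.

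Lgr6, a receptor for R-spondins, had 2.79, 2.69, 0.515 and 0.559 CPM with gastrodin, against 7.54 and 3.87 CPM with vehicle (−2.23 ± 0.50, adjusted p = 0.289). Ccdc80, a secreted matrix-binding protein, had 9.37, 10.4, 26.3 and 18.8 CPM with gastrodin, against 5.15 and 7.39 CPM with vehicle (1.25 ± 0.29, adjusted p = 0.307; 0.0498 at 50 mg alone). Fxyd6, a regulator of the sodium pump, had 1.57, 2.36, 8.42 and 6.30 CPM with gastrodin, against 1.33 and 1.00 CPM with vehicle (1.71 ± 0.41, adjusted p = 0.349; 0.0491 at 50 mg alone). The gastrodin and vehicle libraries did not overlap in any of the 3. Saraf, which turns off store-operated calcium entry, had 22.3, 15.1, 12.2 and 15.6 CPM with gastrodin, against 28.6 and 27.5 CPM with vehicle (−0.80 ± 0.29, adjusted p = 0.67).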
